A study of Mus musculus with 8 samples.

Results

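The alternative pathway of complement was followed through 6 genes in neu-induced mammary tumours, the central component C3, complement factors B (Cfb) and D (Cfd), properdin (Cfp), and the receptors C3ar1 and C5ar1 of the anaphylatoxins. The genes were taken by name, and each had 1 probe on the array, found under the current symbol or under the older names H2-Bf (Cfb), Pfc (Cfp), Adn (Cfd) and C5r1 (C5ar1). They are 6 of 18210 named genes on the array, and 4 of them (C3, Cfb, Cfp and Cfd) were bright enough to be among the 13142 genes and unnamed probes tested. The tumours were 8 spontaneous mammary tumours of the strain FVB/N-TgN (MMTVneu)-202Mul, FVB/N mice that carry the neu oncogene under the mammary tumour virus promoter, which is active mainly in mammary epithelium. Control cream had been applied to the mice bearing 4 tumours and imiquimod cream, for 1 cycle, to those bearing the other 4. Imiquimod activates the innate immune receptor TLR7, and the comparison asks how the treated tumours differed in gene expression from the control tumours. All 8 tumours carried the neu transgene, and the labels give no age and do not say whether each tumour had its own mouse. The tests treat the tumours as independent, which tumours of a shared mouse would not be, so p-values may be too small. Epithelial genes of the gland stood at levels that differed from gene to gene. Mean log2 signals in control and imiquimod tumours were 11.26 and 11.21 for the keratin Krt8 and 11.87 and 11.67 for Krt18. They were 11.57 and 11.33 for Cldn3, 10.21 and 10.43 for Krt7, and 9.73 and 9.80 for Cldn4. Cdh1 was at 8.31 and 8.42, Epcam was dim at 6.82 and 6.74, and Krt19 and Erbb3 were too dim to be tested. None of 7 such markers tested passed. RNA was measured on Illumina bead arrays, and every level below is a log2 signal, on which a step of 1 is a 2-fold difference. Whole tumour pieces were profiled, so more cells of a type and more RNA per cell cannot be told apart.

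Complement is a set of blood and tissue proteins that cut one another in sequence. In the alternative pathway, C3 that is deposited on a surface binds factor B, factor D cuts the bound factor B, and the resulting enzyme, the C3 convertase, cuts more C3. Properdin holds this convertase together and prolongs its action. The small fragments C3a and C5a that are released act on C3ar1 and C5ar1, receptors found mainly on myeloid cells. C3 and factor B are made in the liver and also locally, properdin is made largely by leukocytes, and factor D, also called adipsin, is made largely by adipocytes in mice.

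The components C3, Cfb and Cfp were higher in each of the 4 treated tumours than in any control, with group means 2.04 to 2.51 log2 units apart, whereas the level of Cfd varied so widely among tumours of both groups that no difference was called. The probes of the receptors C3ar1 and C5ar1 stayed at a dim level in all 8 tumours. Of the 4 members tested, 3 passed the threshold of an adjusted p below 0.05, all 3 of them higher with imiquimod. Over all genes and unnamed probes tested, 4.33% passed in either direction and 2.13% passed with a higher level. The mean of each of the 3 in control tumours was itself above the filter limit of 6.64, so they entered the test without their treated values.

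**Figure D1:**
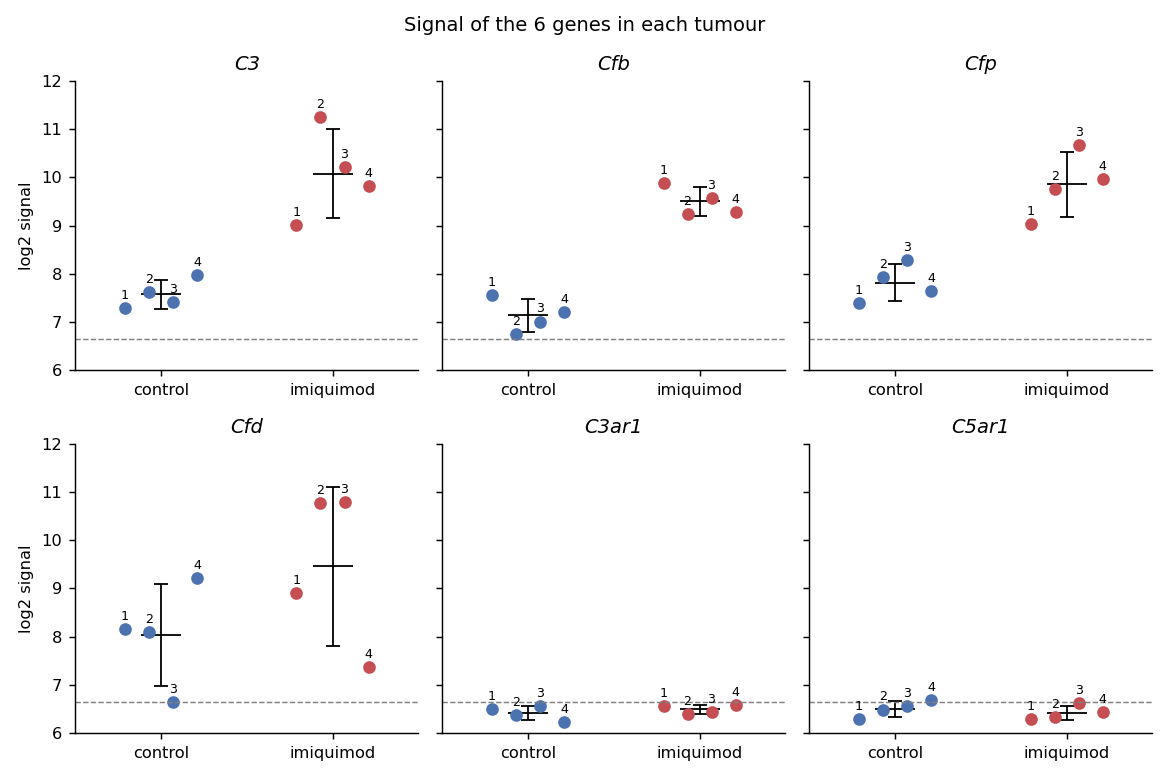
Log2 signal (y axis) of the 6 genes in the 4 control (blue) and 4 imiquimod (red) tumours; numbers are the tumours' replicate numbers, horizontal marks and bars are means and SDs, and the dashed line is the filter limit of 6.64. For C3, Cfb and Cfp every imiquimod tumour lies above every control tumour, for Cfd the groups overlap, and C3ar1 and C5ar1 lie near or below the dashed line throughout.

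C3 is the protein on which all complement pathways converge. Its log2 signal was 7.28, 7.62, 7.42 and 7.97 in control tumours 1 to 4 and 9.02, 11.26, 10.22 and 9.83 in imiquimod tumours 1 to 4. The groups did not overlap, with a gap of 1.05 between the highest control and the lowest treated tumour. C3 rose by a log2 fold change of 2.51 (SE 0.40, n = 4 each), a 5.68-fold difference with a 95% confidence interval from 3.01-fold to 10.7-fold (limma, Benjamini-Hochberg adjusted p = 0.0131). The level was uneven among the treated tumours, with an SD of 0.93 against 0.30 in controls. Imiquimod tumour 2 stood 12.9-fold above the control mean and imiquimod tumour 1 stood 2.73-fold above it. By rank of its fold change, C3 was number 23 of the 13142 units tested.

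The RefSeq promoter of C3 (build GRCm38.p6, chr17:57228087-57228386, minus strand) is shown because the gene rose and because, of the C3 and Cfp promoters, it is the one that holds a motif searched. It covers 250 bases before and 50 bases after the start of the gene, printed 5′ to 3′ along the gene, with the motif match in capitals.
C3: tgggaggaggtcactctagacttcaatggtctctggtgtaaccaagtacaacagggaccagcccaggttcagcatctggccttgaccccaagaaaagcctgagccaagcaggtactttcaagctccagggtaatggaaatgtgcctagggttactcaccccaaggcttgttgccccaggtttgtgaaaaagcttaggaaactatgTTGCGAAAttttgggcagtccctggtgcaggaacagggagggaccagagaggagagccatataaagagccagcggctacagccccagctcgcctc
The capitals mark a match to TTGCNNAA, a motif of C/EBP type (a family of transcription factors active in liver, adipocytes and myeloid cells), which begins 45 bases before the start. The motif, on either strand, is found in 10.8% of the 32851 promoters of the same length in the RefSeq table.

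Cfb encodes factor B, the part of the alternative convertase that carries the protease. Its log2 signal was 7.57, 6.76, 7.01 and 7.21 in control tumours 1 to 4 and 9.89, 9.25, 9.58 and 9.29 in imiquimod tumours 1 to 4. The treated tumours were close to each other, within a range of 0.64, and lay at least 1.68 above every control. Cfb rose by a log2 fold change of 2.36 (SE 0.19, n = 4 each), which is 5.15-fold with a 95% confidence interval from 3.80-fold to 6.99-fold (limma, adjusted p = 0.0011). Among all units tested it had the 9th smallest p and the 30th highest fold change. Its order among the treated tumours was the reverse of that of C3 at the ends, with Cfb highest in tumour 1 and lowest in tumour 2. The log2 ratio of Cfb to C3 differed between the groups by -0.14, which did not pass (exact permutation test, two-sided, p = 0.914, adjusted p = 0.914 over 3 pairs, 4 tumours per group). That ratio ran from -2.01 in imiquimod tumour 2 to 0.87 in imiquimod tumour 1, and from -0.86 to 0.28 in controls, so the test says little about small differences in size between the changes of C3 and Cfb.

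Cfp encodes properdin, the stabiliser of the alternative convertase. Its log2 signal was 7.40, 7.93, 8.28 and 7.65 in control tumours 1 to 4 and 9.03, 9.76, 10.67 and 9.96 in imiquimod tumours 1 to 4. The groups were apart by 0.75 at their nearest tumours, and imiquimod tumour 3 was the highest. Cfp rose by a log2 fold change of 2.04 (SE 0.32, n = 4 each), which is 4.11-fold with a 95% confidence interval from 2.48-fold to 6.82-fold (limma, adjusted p = 0.0121). Groups that do not overlap, with imiquimod higher, were found for C3, Cfb and Cfp among the 6 members and for 5.52% of all units tested.

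The Cfp promoter (RefSeq, build GRCm38.p6, chrX:20931506-20931805, minus strand, over the same window) is shown beside that of C3 since both genes rose.
Cfp: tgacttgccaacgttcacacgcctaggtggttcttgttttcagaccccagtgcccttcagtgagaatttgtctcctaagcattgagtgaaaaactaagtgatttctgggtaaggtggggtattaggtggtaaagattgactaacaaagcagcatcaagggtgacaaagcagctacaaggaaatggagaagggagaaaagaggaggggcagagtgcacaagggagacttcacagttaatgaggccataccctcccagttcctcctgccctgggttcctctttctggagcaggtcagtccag
It has no capitals because none of the 6 motifs searched on both strands matched these letters. The motifs and the shares of all promoters that hold them were GAAANNGAA of interferon regulatory factor type (8.56%), TTCNNNGAA of STAT type (8.30%), GGANNNTCC of NF-kB type (8.62%), TGANTCA of AP-1 type (7.81%), TTGCNNAA (above) and GAGGAAGT of PU.1 type (3.20%). Of the 6 members, 5 were matched in the promoter table, and Cfb was not. The promoter of Cfd held no match, that of C3ar1 held 1 match to the AP-1 motif (TGACTCA, beginning 22 bases before the start) and that of C5ar1 held 1 match to the interferon regulatory factor motif (TTCCTTTTC on the given strand, beginning 66 bases before the start). The AP-1, STAT and NF-kB motifs read the same on both strands, and no matches in these promoters overlapped.

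Some markers of macrophages, but not all, were higher in the treated tumours along with the 3 members that rose. Of 12 macrophage markers, all 12 tested, 6 rose, 6 did not pass and none fell, while 2.13% of all units tested rose. The mean log2 level of the 12 markers was 7.69 to 7.95 in controls and 8.35 to 9.08 with imiquimod. In imiquimod tumours 1 to 4 this mean stood 0.57, 0.56, 1.29 and 0.91 above the control mean, and Cfp stood 1.22, 1.94, 2.85 and 2.15 above its own control mean. Both were highest in imiquimod tumour 3. The macrophage markers that rose were Cd14 (2.55), Aif1 (1.56), C1qb (1.36), C1qa (1.32), Adgre1 (1.02) and Fcgr1 (0.75). The control mean of Fcgr1, 6.55, was below the filter limit, so Fcgr1 entered the test through its treated tumours. Csf1r (0.06), Msr1 (0.03), Mertk (0.18), Lyz2 (0.21), Mrc1 (0.33) and Cd68 (0.66) did not pass. Of 12 neutrophil markers 8 were tested and none passed, with mean levels of 6.77 to 6.81 in controls and 6.87 to 7.59 with imiquimod, highest in tumour 3. Among them S100a8 differed by 1.76 on the log2 scale (not passed, adjusted p = 0.0654), and Camp, Ngp and Mmp8 were below the filter limit. Of 4 basal and epidermal keratinocyte markers tested 1, Krt14, rose. Their mean was highest, at 8.31, in imiquimod tumour 1, where Cfb, Lor (9.28) and Krt10 (8.79) were also highest. Krt14 was at 8.36 in that tumour and highest, at 9.06, in imiquimod tumour 2, where Cfb was lowest of the treated tumours. Fibroblast marker means were 6.82 to 7.19 in controls and 7.09, 7.92, 8.39 and 7.89 in imiquimod tumours 1 to 4, of which tumour 1, the lowest, also had the lowest C3 and Cfp of the treated tumours. Of 8 fibroblast markers 1, Dcn, rose. The part of these cell types in the changes of C3, Cfb and Cfp was not tested. Skeletal muscle marker means were 9.12 and 8.83 in imiquimod tumours 3 and 4 and at most 7.51 in the other 6 tumours. Without tumours 3 and 4 the log2 fold changes were 2.57 for C3 (adjusted p = 0.107), 2.43 for Cfb (adjusted p = 0.0167) and 1.58 for Cfp (adjusted p = 0.0679), so that only Cfb among the members was still called, with 2 treated tumours left.

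Cfd encodes factor D, the protease that cuts factor B. Its log2 signal was 8.16, 8.09, 6.65 and 9.21 in control tumours 1 to 4 and 8.91, 10.76, 10.79 and 7.37 in imiquimod tumours 1 to 4. Imiquimod tumours 2 and 3 were above every control, imiquimod tumour 1 lay below control tumour 4, and imiquimod tumour 4 lay below 3 of the 4 controls. The means were 8.03 ± 1.05 and 9.45 ± 1.65 (SD, n = 4 each), and the log2 fold change of 1.43 (SE 0.80) did not pass (limma, adjusted p = 0.363). Its 95% confidence interval ran from 0.761-fold to 9.51-fold, so a change as large as that of C3 is within it. Left out in turn, the single tumours moved the log2 fold change between 0.97 (without control 3) and 2.12 (without imiquimod 4, adjusted p = 0.152).

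The imiquimod tumours with the most Cfd were also those with the most adipocyte marker signal. Of 12 adipocyte markers 10 were tested and none passed, with mean levels of 6.81 to 7.16 in controls and 7.01, 7.97, 7.99 and 7.16 in imiquimod tumours 1 to 4. Imiquimod tumours 2 and 3 were thus the highest for both, and control tumours 4 and 3 were the highest and lowest controls for both. This order was not particular to adipocyte markers. The fibroblast marker mean was also highest in imiquimod tumours 2 and 3 (7.92 and 8.39), with 7.89 in tumour 4, where Cfd was lowest. Its highest and lowest controls were likewise tumours 4 (7.19) and 3 (6.82). The adipocyte hormone Adipoq was at 7.54, 9.18, 9.58 and 7.22 in imiquimod tumours 1 to 4, between 7.22 and 7.75 in controls. The carbonic anhydrase Car3, abundant in fat and in muscle, was at 6.70 to 8.51 in controls and reached 9.83 and 10.44 in imiquimod tumours 2 and 3. Other markers had another order, with Pparg, a regulator of fat cell formation, at 6.42, 7.14, 7.01 and 7.51 in imiquimod tumours 1 to 4, highest in tumour 4, where Cfd was lowest. The lipase Lpl was at 7.33, 10.67, 9.29 and 8.56 in the same tumours, higher in tumour 4 than in tumour 1, the reverse of Cfd. Fabp4, another adipocyte gene, was at 6.96 to 7.23 in controls and 6.71 to 7.05 with imiquimod, and Plin1 and Cd36 were below the filter limit. Whether fat in the tumour pieces set the level of Cfd was not tested. The log2 ratio of Cfp to Cfd differed by 0.61 between the groups, within its spread of 1.36 in controls and 1.54 with imiquimod (SD, n = 4 each; exact permutation test, two-sided, p = 0.543, adjusted p = 0.814 over 3 pairs).

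**Figure D2:**
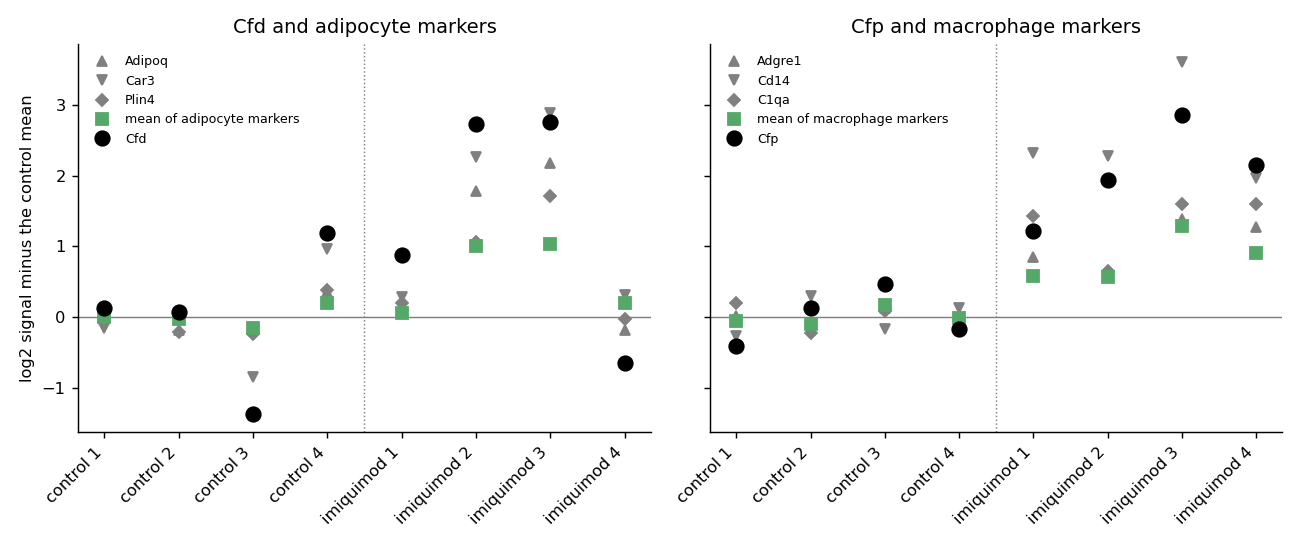
Log2 signal minus the control mean (y axis) in each of the 8 tumours (x axis), on the left for Cfd with the adipocyte markers Adipoq, Car3 and Plin4 and the mean of the 10 adipocyte markers tested, on the right for Cfp with the macrophage markers Adgre1, Cd14 and C1qa and the mean of the 12 macrophage markers. Cfd and the adipocyte mean are both highest in imiquimod tumours 2 and 3, and the macrophage mean lies above every control in all 4 imiquimod tumours. The single markers drawn are a selection, on the left all highest in imiquimod tumours 2 and 3 and on the right all risen. Markers with another pattern, such as Pparg and Fabp4, or Csf1r, Msr1 and Mertk, which did not pass, enter only the means.

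The anaphylatoxin receptors were at the dim end of the array. C3ar1, the receptor of C3a, had log2 signals of 6.50, 6.37, 6.55 and 6.23 in control tumours 1 to 4 and 6.55, 6.39, 6.43 and 6.58 in imiquimod tumours 1 to 4. C5ar1, the receptor of C5a, had 6.29, 6.49, 6.55 and 6.69 in controls and 6.28, 6.34, 6.62 and 6.44 with imiquimod. The groups overlapped for both receptors, and both had means over all tumours below the filter limit (6.45 and 6.46), so neither entered the main test. In a fit that kept every probe, 18465 units, the log2 fold change of C3ar1 was 0.08 (SE 0.09, limma, adjusted p = 0.735) and that of C5ar1 was -0.08 (SE 0.10, adjusted p = 0.763). The 95% confidence intervals were 0.921-fold to 1.21-fold and 0.801-fold to 1.11-fold. The receptors' log2 ratio differed by 0.16 between the groups (exact permutation test, two-sided, p = 0.429, adjusted p = 0.814 over 3 pairs, 4 tumours per group). How these signals stand to the array's background is not given in the sources used here, so the values do not show whether the receptors were expressed.

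Among other complement genes, C2 rose and the regulators and terminal components tested did not pass. Of 32 further genes of the pathway, 28 had a probe and 20 were tested, of which 2 rose (C2 and Itgax), none fell and 18 did not pass. Over all units tested, 2.13% rose. Of the 2, Itgax entered the test only through its treated tumours. The median log2 fold change of the 20 was 0.10, against -0.02 for all units tested. C2, the homologue of Cfb that serves the classical and lectin pathways, had log2 signals of 6.96, 6.79, 6.38 and 6.78 in controls and 7.66, 8.87, 9.35 and 9.50 in imiquimod tumours 1 to 4. The groups did not overlap, and the difference, in which C2 rose, was 2.12 on the log2 scale (SE 0.36, n = 4 each, limma, adjusted p = 0.0164). Among treated tumours C2 was lowest in tumour 1, in which Cfb was highest. Without imiquimod tumours 3 and 4, the difference in C2 was 1.54 on the log2 scale (adjusted p = 0.103).

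Most of the genes listed as regulators restrain the convertase or the terminal complex or inactivate the fragments, and the list also holds Masp1, which acts on factor D. None of the 12 tested passed, with log2 fold changes from -0.08 to 0.66, and 4 more were below the filter limit. Clu, clusterin, an inhibitor of the terminal complex, had the highest of these, 0.66 (SE 0.19, limma, adjusted p = 0.0933). Its adjusted p was 0.0191 without imiquimod tumour 1 and between 0.113 and 0.195 with any other single tumour left out. The membrane inhibitors Cd55 (0.20) and Cr1l, the rodent regulator Crry (0.17, and -0.12 on its second probe), did not pass, nor did Cfi, a plasma protease that inactivates C3b (-0.08). Masp1, which in mice encodes among others a protease that activates factor D, had 0.10 on its brightest probe, whose control values ran from 10.24 to 11.45, and -0.14 and -0.04 on its other probes.

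Of the terminal components, which form the pore in target membranes, 3 were tested and none passed. Hc, with a log2 fold change of 0.04 and a control mean of 6.66 next to the filter limit, encodes C5, the source of C5a, and FVB/N mice are known to carry a loss-of-function allele of it and to lack C5 in the blood, which limits these tumours as a model of signalling through C5ar1. C5ar2, the second receptor of C5a, had log2 signals of 8.67, 6.99, 8.71 and 8.10 in controls and 7.36, 7.44, 6.98 and 7.71 in imiquimod tumours 1 to 4. Its log2 fold change of -0.75 (SE 0.36) did not pass (limma, adjusted p = 0.28). Without control tumour 2, the low control, it was -1.12 (adjusted p = 0.0266), the only 1 of 21 alternatives in which C5ar2 passed. Without control tumour 1 it was -0.56 (adjusted p = 0.48), and without control tumour 3 it was -0.55 (adjusted p = 0.461). Among receptors for C3 fragments, Itgax, the alpha chain of complement receptor 4, rose by 0.62 on the log2 scale (SE 0.12, limma, adjusted p = 0.0229), from 6.52, 6.29, 6.53 and 6.48 in controls to between 6.96 and 6.98 in imiquimod tumours 1 to 3 and 7.42 in tumour 4. Its control mean of 6.46 was below the filter limit, so it entered the test through its treated tumours, and its adjusted p was 0.0538 without control 1 and 0.059 without control 4. Itgb2, the beta chain it pairs with, was below the filter limit on average, with 6.34 to 6.46 in controls and 6.57 to 7.31 with imiquimod. For Vsig4, a macrophage receptor for C3 fragments, the groups differed by 0.26 on the log2 scale, which did not pass (adjusted p = 0.404).

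**Figure D3:**
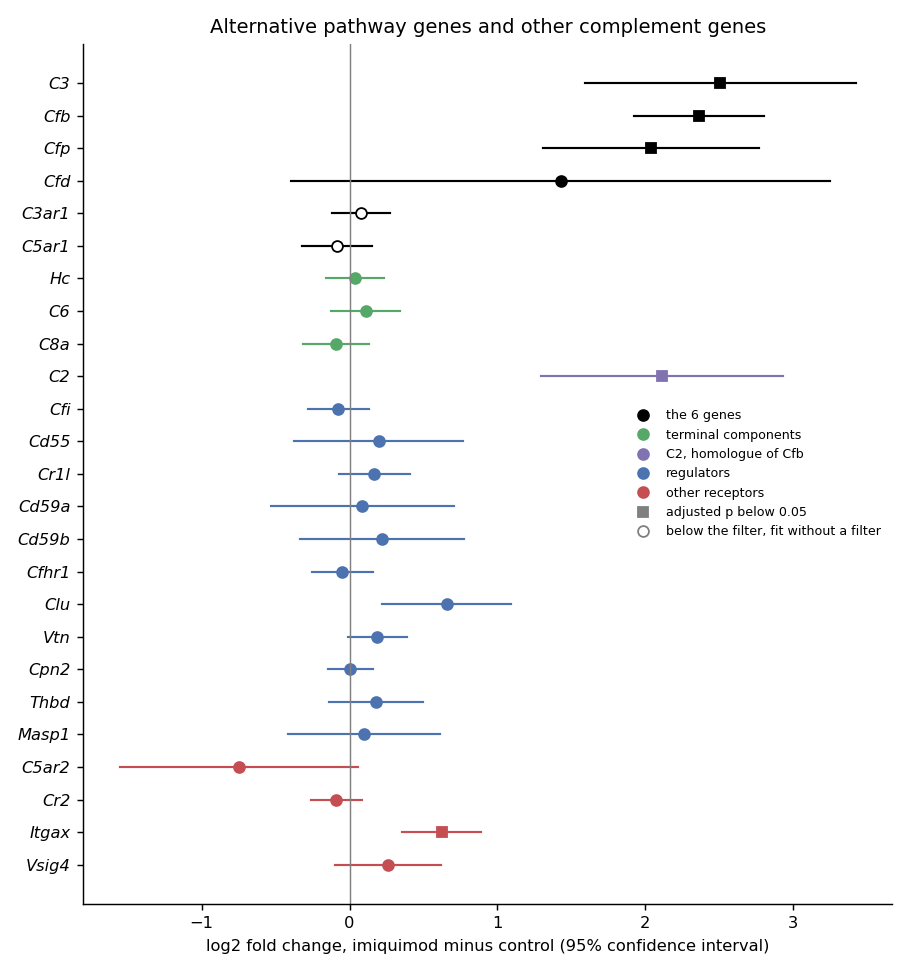
Log2 fold change, imiquimod minus control (x axis), with its 95% confidence interval for the 6 genes and 19 other complement genes tested (y axis); squares passed the threshold, and the open circles of C3ar1 and C5ar1 come from the fit without a filter. C3, Cfb, Cfp and C2 lie between 2.04 and 2.51, and Itgax at 0.62 is the other square.

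The genes whose levels followed each member most closely within the groups were searched over 13002 other named genes, by the Pearson correlation of deviations from the group means over the 8 tumours. They were D630003M21Rik, Man2a1 and Supt6 for C3 (r = 0.973, 0.972 and 0.970), Taf3, Pgghg and Paxx for Cfb (r = 0.985, 0.984 and 0.979), Tarbp2, Usp39 and Susd6 for Cfp (r = 0.984, 0.980 and 0.973), and Clpx, Sra1 and Rbm33 for Cfd (r = 0.972, 0.961 and 0.958). Between 39 and 67 genes had an r above 0.9 for a given member, and over so few tumours such values are a description of these arrays only. Of these 12 genes, Susd6 alone passed the threshold between the groups, higher with imiquimod by 1.30 on the log2 scale (adjusted p = 0.0103).

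**Figure D4:**
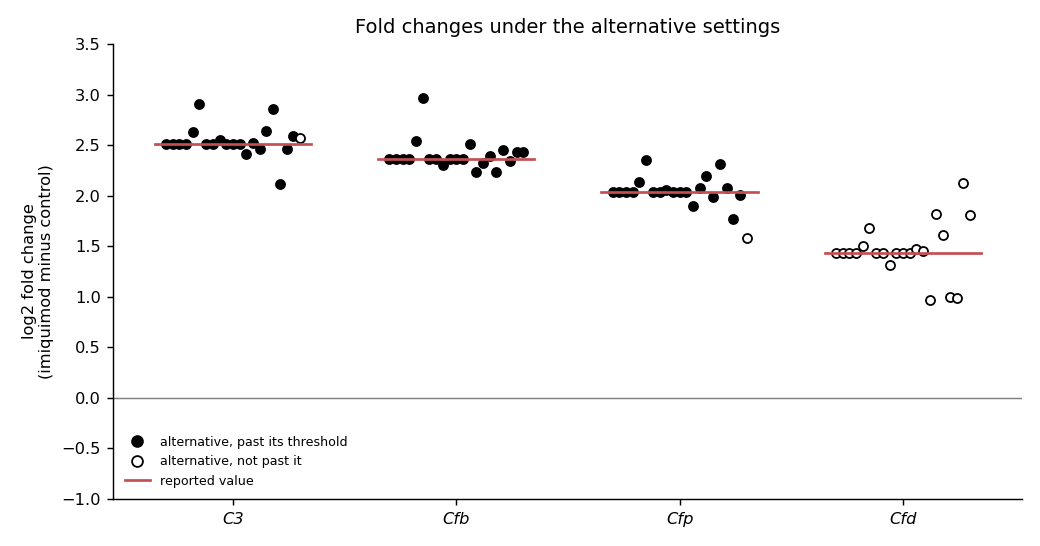
Log2 fold change (y axis) of the 4 members tested (x axis) under 21 alternative settings, as filled circles where the gene passed the threshold of that setting and open circles where it did not; the red line is the reported value. Cfb is filled throughout, C3 and Cfp have 1 open circle each, from leaving out imiquimod tumours 3 and 4 together, and Cfd is open throughout.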

How the data were processed

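Each tumour was 1 array, and the titles in the labels gave its group. The authors deposited log2 signals in a table of 1 column per tumour, which was used as deposited. The array medians lie between 6.81631 and 6.82434. The highest value is 14.86 in every control column and 15.07 in every imiquimod column. No source used here gives the reason, and processing by group cannot be told apart from treatment. This limits every difference between the groups and its p-value, those of C3, Cfb and Cfp included. Per the submitters' processing notes the R package affy was used, with no version or role stated. How background was treated is not stated. Accessions and symbols for the probes came from a second deposited table and were updated through RefSeq mouse genes (GRCm38.p6). Its 16 columns of per-sample values have names that match no label and were not used.

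Probes were ranked by their mean over the 8 tumours, those under 6.64 were left out, and a gene was read from its brightest probe, which gave 13142 units. The groups were compared with limma 3.58.1 (R 4.3.3), by a two-sided moderated test with Benjamini-Hochberg adjustment over all units and a threshold of 0.05, which 569 units passed. Differences are imiquimod minus control. Changes of 3 pairs of members were compared by exact permutation tests, for which 0.0286 is the smallest p. No arrays were identical, and their number limits the precision. The steps were tested on simulated data. Alternatives covered the filter, normalization, background, variance model, array weights, probe choice, replicate block, threshold and tumours left out. The genes fixed by rule were the members, the listed pathway genes that passed, and the 3 genes most like each member. The rule allowed other listed pathway genes without fixing which, and 9 were named. Marker genes, Cpn2 and Thbd were picked after their values were seen. The values of 1 regulator among the counted pathway genes are not reported here. The members, lists and motifs were chosen with earlier results of these data known.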

Additional observations from a re-analysis of the deposited data

Results flagged for a closer look

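In 72 groups of 4 values examined, 4 had a tumour far from the other 3, about as many as the 1 in 20 that such a comparison gives by chance, and none concerned one of the 6 members. Itgax was 7.42 in imiquimod tumour 4 and 6.96 to 6.98 in the other treated tumours. Thbd, thrombomodulin, was 6.69 in control tumour 4 and 6.91 to 6.93 in the other controls. Cpn2, a subunit of the carboxypeptidase that inactivates anaphylatoxins, was 6.90 in imiquimod tumour 4 and 6.97 to 6.98 in the others. The mean of the 2 erythroid markers tested was 11.58 in imiquimod tumour 3 and 8.87 to 9.07 in the other treated tumours.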

How the results depend on the processing

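The 3 members called (C3, Cfb and Cfp) were called in 20 of 21 alternatives, the exception being imiquimod tumours 3 and 4 left out together, with 1 member called (Cfb). Not every alternative could remove a call. The threshold of 0.1 could not, and averaging the probes of a gene left the members' fold changes as they were, since each has 1 probe. Over the alternatives the log2 fold change ran from 2.11 to 2.90 for C3, 2.23 to 2.96 for Cfb, 1.58 to 2.35 for Cfp and 0.97 to 2.12 for Cfd, which passed in none (adjusted p 0.152 to 0.621). The number of genes called was 569, 1189 at an adjusted p below 0.1, 112 without imiquimod tumours 3 and 4, and 279 to 913 with single tumours left out. With the replicate block it was 501, the same 3 members were called, and deviations of same-numbered tumours correlated between -0.02 and 0.04, so the numbers were not taken as pairs. The normexp background with an offset of 16 changed the difference of C3ar1 from 0.08 to 0.20, that of C5ar1 from -0.08 to -0.21, that of Itgax from 0.62 to 1.24, that between the changes of C3ar1 and C5ar1 from 0.16 to 0.42 and that between Cfb and C3 from -0.14 to 0.06. Between the changes of paired members, no difference passed in the 5 alternatives in which it was tested. Centring the arrays on their medians and averaging the probes of a gene leave these ratios as they were, so those settings could not change the result. Leaving out 1 tumour, with no test run, moved it to between -0.63 and 0.34 for Cfb and C3, -0.12 and 1.23 for Cfp and Cfd, and 0.04 and 0.26 for C3ar1 and C5ar1. Itgax gave no value in the setting without imiquimod tumours 3 and 4 or with the dimmer 50% of probes left out, since it was below the limit there. What remains of the array's background in the deposited values is not known, a limit on every fold change given.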
